A study of Mus musculus with 4 samples.

Results

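The heat-shock proteins, chaperonins and their partner proteins were followed in MC38 cells, a mouse colon carcinoma line, with or without editing of Cbfb. Genes were chosen by symbol (Hspa, Hspb, Hspd, Hspe, Hsph and Hsp90 genes, Dnaja, Dnajb and Dnajc genes, Cct2 to Cct8, Bag1 to Bag6, Hsf1, Hsf2, Tcp1 and Stip1, with Hspg2 left out), which gave 91 of the 26322 genes listed. The control group, labelled WT and called sgNT here, received Cas9 nuclease with a non-targeting guide. The edited group, labelled CbfbKO and called sgCbfb, received Cas9 with a guide to Cbfb, whose product is the partner of the DNA-binding RUNX proteins. Both groups were electroporated, were collected as about 1000000 cells at least 1 week later, and carry no other allele or agent that the labels name. The methods describe transient transfection and no step that isolates single clones, so each group is read here as a population of cells. Each group had 2 QuantSeq 3′ mRNA libraries. Another sample of each group was collected but not sequenced because its RNA was of poor quality.

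Chaperones bind proteins that are not folded and keep them from aggregating. HSP70 proteins hold short hydrophobic stretches in a cycle driven by ATP, J-domain proteins (the DNAJ families, also called HSP40) deliver substrates to them and start ATP hydrolysis, and HSP110 and BAG proteins release the nucleotide so that the substrate can leave. HSP90 acts later on kinases and steroid receptors, TRiC folds actin and tubulin inside a closed chamber, small heat-shock proteins trap unfolded proteins without ATP, and the heat-shock factor HSF1 switches the inducible genes on under stress. The symbol rule reaches past the cytosol, and the genes named here are examples and not a full list. Hspa5, Hsp90b1, Dnajb9, Dnajb11, Dnajc3 and Dnajc10 encode proteins of the endoplasmic reticulum. Hspa9, Hspd1, Hspe1 and Dnaja3 encode mitochondrial ones, and Hspb11 encodes a protein of intraflagellar transport.

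The promoters of classical heat-shock genes hold heat-shock elements, which are built from the unit NGAAN in alternating orientation and are bound by HSF1 and HSF2. RefSeq promoter windows (GRCm38.p6, the 250 bases before a start) were matched to 75 of the 91 genes. A pair of inverted units (TTCNNGAA or GAANNTTC, each its own reverse complement, so that both strands are covered) was in the window of 17 of the 75, or 22.7%, against 14.5% of 27025 genes. The pair forms part of the longer word of 3 alternating units, which was in the window of 3 of the 75 (Dnajb6, Hspd1 and Hspe1), or 4%, against 0.514% of all. The word TGTGGT or TGCGGT, read on both strands, is the core that RUNX proteins bind, and was in 12 of the 75, or 16%, against 20.9% of all. It is not part of either heat-shock word. These are letter matches and not measured binding. The windows are shown for the genes whose levels are described next. Hspe1 (chr1:55087898-55088147, plus strand) lies head to head with Hspd1, with overlapping windows, and has 2 overlapping triple words, which start 89 and 84 bases before its start. Dnajb6 (chr5:29735648-29735897, plus strand) has 1 triple word 46 bases before its start. Hspa1b (chr17:34959239-34959488, minus strand), the stress-inducible HSP70, has a pair. Dnajb2 (chr1:75236452-75236701, plus strand) has a RUNX core and was picked after its values were seen. Dnajb6 and Dnajb2 each have 2 RefSeq windows, and 1 is shown. The other Dnajb6 window holds the same triple word, and the other Dnajb2 window holds no RUNX core. Capitals mark the heat-shock pairs in the first 3 and the RUNX core in Dnajb2.
Hspe1: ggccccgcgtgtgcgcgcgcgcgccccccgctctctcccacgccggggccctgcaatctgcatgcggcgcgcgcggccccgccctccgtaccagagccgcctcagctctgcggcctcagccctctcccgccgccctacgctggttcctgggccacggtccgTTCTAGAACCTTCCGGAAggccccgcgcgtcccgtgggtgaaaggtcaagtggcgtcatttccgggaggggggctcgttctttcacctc
Dnajb6: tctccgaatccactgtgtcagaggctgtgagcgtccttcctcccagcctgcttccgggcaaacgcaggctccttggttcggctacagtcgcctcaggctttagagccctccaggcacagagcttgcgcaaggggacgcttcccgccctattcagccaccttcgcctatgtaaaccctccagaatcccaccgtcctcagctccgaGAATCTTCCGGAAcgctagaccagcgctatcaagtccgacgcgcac
Hspa1b: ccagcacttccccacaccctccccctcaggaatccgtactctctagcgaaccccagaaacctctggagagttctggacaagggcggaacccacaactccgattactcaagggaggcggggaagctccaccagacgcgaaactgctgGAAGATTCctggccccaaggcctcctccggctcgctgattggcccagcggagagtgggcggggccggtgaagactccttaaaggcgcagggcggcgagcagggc
Dnajb2: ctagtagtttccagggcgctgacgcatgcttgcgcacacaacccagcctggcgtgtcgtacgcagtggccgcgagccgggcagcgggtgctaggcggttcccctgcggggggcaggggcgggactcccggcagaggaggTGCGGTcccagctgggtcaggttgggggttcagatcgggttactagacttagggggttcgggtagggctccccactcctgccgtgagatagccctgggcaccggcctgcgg

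The libraries held 3189035 to 3907936 reads, so that 1 read was worth 0.256 to 0.314 CPM (counts scaled to a library total of 1000000). QuantSeq reads come from the 3′ ends of transcripts, so CPM was not divided by length, and levels of different genes are set side by side on that scale. Cbfb itself had 295 and 285 reads in sgNT and 125 in each sgCbfb library (log2 fold change −1.27 ± 0.12 SE, adjusted p = 1.76e-07 by limma). A 3′ tag is counted whether or not its transcript carries the edit, so this level does not measure the edit. The ribosomal transcript Rn45s took 11.3 to 13.9% of reads, with its lowest share in sgCbfb replicate 1. Of the colon epithelial markers, Krt18 and Vil1 had no read and the other 6 had at most 4 reads in any library, whereas of the 4 mesenchymal genes Vim had 6737 to 8669 reads, Fn1 120 to 153, Zeb1 93 to 129 and Col1a1 8 to 13. In CPM, Vim was lower in both sgCbfb libraries than in both controls (log2 fold change −0.18, adjusted p = 0.0538 by limma). It passed an adjusted p of 0.05 in 5 of 14 alternative settings. Leukocyte markers had at most 6 reads and endothelial markers at most 1 in any library. In bulk RNA, fewer cells of one kind and less RNA per cell cannot be told apart.

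The libraries were made to find transcripts that change when Cbfb is lost, and the chaperone genes are read from that comparison. Together the 91 genes took 2.36 and 2.42% of reads in sgNT and 2.48 and 2.38% in sgCbfb, and these ranges overlapped. Of the 91, 75 were abundant enough to test (2 or more libraries with a log2 CPM of 0 or above). Of the rest, 11 had no read, and Cct6b, Dnajc28, Hspa12a, Hspb1 and Hspb2 had at most 4 reads in any library. None of the 75 passed an adjusted p of 0.05 by limma, against 2.83% of the 12207 genes tested (1.57% higher and 1.25% lower in sgCbfb). At an unadjusted p below 0.05, 9 of the 75 remained (12%), against 14.9% of all genes tested. This order turned with voom, at 12 of the 75 (16%, against 15.5%) on library totals and 15 (20%, against 15.1%) with TMM scaling. The chaperone genes were more abundant than most, so the limma shares were also taken at higher levels. Above a mean of 30 CPM they were 6 of 52 (11.5%), against 19.4% of all genes at that level. Above 100 CPM they were 2 of 32 (6.25%), against 22.9%. Both sgCbfb libraries lay above both sgNT libraries for 21 of the 75 (28%, against 27.4% of all), and below them for 16 (21.3%, against 16.8%). The median log2 fold change of the 75 was 0.034 (interquartile range −0.051 to 0.12), and that of all genes tested was 0.039 (−0.12 to 0.21).

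**Figure D1:**
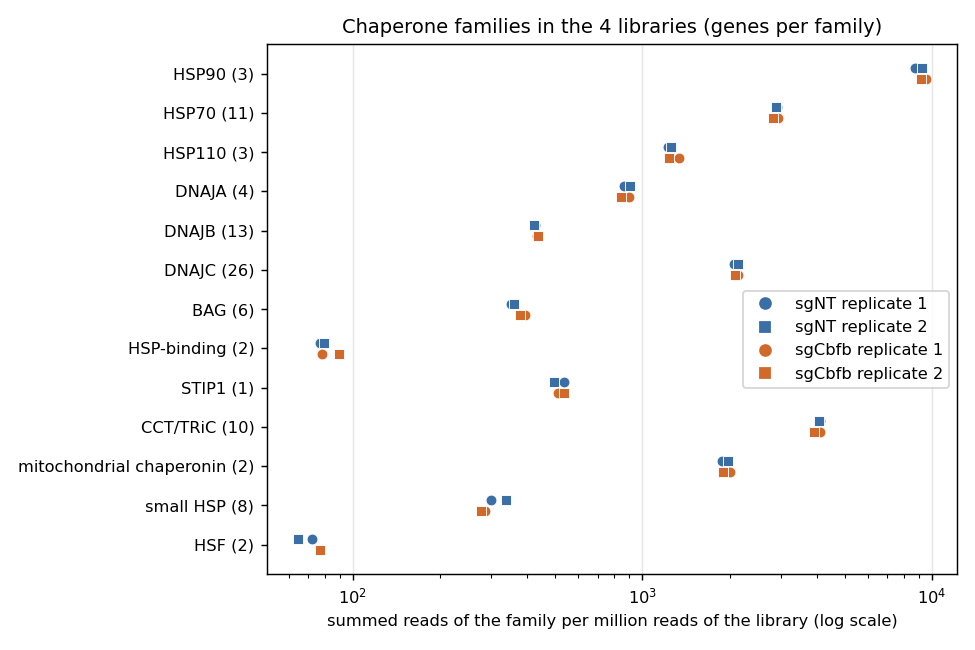
Summed CPM (x axis, log scale) of each chaperone family (y axis, with its number of genes) in each library, where blue is sgNT, orange is sgCbfb, circles are replicate 1 and squares are replicate 2. The sgCbfb sums lie below both controls for the small heat-shock proteins, above both for the BAG, DNAJB and HSF families, and overlap them for the other families, with HSP90 highest at 8748 to 9545 and the heat-shock factors lowest at 64.8 to 77.0.

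The HSP90 genes had the highest sum, 8748 and 9206 CPM in sgNT and 9545 and 9136 in sgCbfb, which overlapped. Hsp90ab1 (chr17:45567775-45573271, minus strand), the constitutive cytosolic form, was the most abundant of the 91 genes, with 21697 and 22589 reads in sgNT and 27907 and 22062 in sgCbfb. In CPM both sgCbfb libraries lay above both controls, by 0.096 on the log2 scale (95% interval −0.0030 to 0.19, adjusted p = 0.353). Hsp90ab1 was called with voom on library totals (adjusted p = 0.0101) and in no other of the 14 alternative settings. Hsp90aa1, the stress-inducible form, had 3235 and 3384 reads in sgNT and 3857 and 2799 in sgCbfb, with overlapping levels and a log2 fold change of −0.079 (95% interval −0.20 to 0.044). Hsp90b1 (GRP94), the form of the endoplasmic reticulum, had 4778, 4731, 5539 and 4274 reads in the same order and a log2 fold change of −0.036 (−0.14 to 0.071). Stip1 (HOP), which carries substrates from HSP70 to HSP90, had 1825, 1657, 2001 and 1711 reads and a log2 fold change of 0.021 (−0.11 to 0.15).

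Of the 11 HSP70 genes 8 were tested. Their sum was 2911 and 2896 CPM in sgNT and 2948 and 2834 in sgCbfb. Hspa5 (BiP), the HSP70 of the endoplasmic reticulum, had 5588 and 5414 reads in sgNT and 6711 and 5122 in sgCbfb, a log2 fold change of 0.023 (95% interval −0.083 to 0.13). Hspa9 (mortalin), which pulls proteins into mitochondria, had 2606, 2572, 2810 and 2277 reads, and both sgCbfb levels were below the controls, by a log2 fold change of −0.10 (−0.22 to 0.011, adjusted p = 0.399). Hspa8, the constitutive cytosolic HSP70, had 1296 reads in each control and 1491 and 1217 in sgCbfb, a log2 fold change of −0.013 (−0.14 to 0.11). On the linear scale the interval of Hspa8 ran from 0.907-fold to 1.08-fold.

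The stress-inducible pair differed in whether it was seen at all. Hspa1a had no read in any library, where 3 reads, the limit that a count of 0 allows, would be 0.768 to 0.941 CPM. Hspa1b had 7 and 14 reads in sgNT and 27 and 15 in sgCbfb. Both sgCbfb levels were above the controls, with a log2 fold change of 0.82 (95% interval 0.036 to 1.61, adjusted p = 0.305), which rests on at most 27 reads in any library. Leaving out 1 library moved it between 0.40 (without sgNT replicate 1) and 1.25 (without sgNT replicate 2). The 250-base promoter windows of the pair differ at 3 positions (98.8% the same), and no 75-base stretch in the last 500 transcript bases of either gene is shared with another gene. Hspa14, a ribosome-associated HSP70, had 189 reads in each control and 260 and 211 in sgCbfb (log2 fold change 0.24, 95% interval 0.011 to 0.47, adjusted p = 0.304). Dnajc2, its partner at the ribosome, had 1302, 1276, 1586 and 1226 reads and a log2 fold change of 0.044 (−0.085 to 0.17). The germ-cell form Hspa1l had no read.

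The HSP110 genes, which act as nucleotide exchange factors for HSP70, summed to 1224 and 1253 CPM in sgNT and 1341 and 1239 in sgCbfb. Hspa4 had 2363, 2505, 3114 and 2326 reads and a log2 fold change of 0.077 (−0.047 to 0.20). Hsph1, a heat-inducible gene with a heat-shock pair in its window, had 1270, 1172, 1519 and 1148 reads and a log2 fold change of 0.045 (−0.091 to 0.18). Hspa4l had 525, 502, 608 and 478 reads and a log2 fold change of 0.0016. The libraries of all 3 overlapped.

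The DNAJ families held 4 DNAJA, 13 DNAJB and 26 DNAJC genes, of which 4, 9 and 24 were tested. DNAJA genes, the closest to bacterial DnaJ, summed to 867 and 907 CPM in sgNT and 897 and 846 in sgCbfb. Dnaja2 had 1578, 1572, 1846 and 1442 reads and a log2 fold change of −0.018, and Dnaja1 had 1274, 1378, 1585 and 1187 and one of −0.019. Dnaja3, the mitochondrial member, had 80 and 68 reads in sgNT and 63 and 60 in sgCbfb, below the controls at an adjusted p of 0.474.

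DNAJB genes summed to 424.0 and 422 CPM in sgNT and 433 and 435 in sgCbfb. Both sgCbfb sums were above the controls, but of the 9 tested genes 4 had positive log2 fold changes and 5 negative ones. Dnajb1, the classical inducible HSP40, had 221 and 203 reads in sgNT and 298 and 221 in sgCbfb. Its sgCbfb levels were above the controls by 0.21 on the log2 scale (95% interval −0.018 to 0.43, adjusted p = 0.387). Dnajb6, which suppresses protein aggregation, had 364, 383, 422 and 404 reads, with overlapping levels and a log2 fold change of 0.076. Dnajb11, a cofactor of BiP, had 276, 288, 322 and 255 reads and a log2 fold change of −0.045. Dnajb2, which hands ubiquitylated clients on for degradation, had 52 and 50 reads in sgNT and 96 and 66 in sgCbfb, a log2 fold change of 0.56 (0.15 to 0.96, adjusted p = 0.151). Dnajb3, Dnajb7, Dnajb8 and Dnajb13 had no read.

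The 26 DNAJC genes, in which the J domain is joined to many unrelated parts, summed to 2064 and 2134 CPM in sgNT and 2143 and 2092 in sgCbfb. Dnajc25 (chr4:58995062-59025573, plus strand) had 318 and 281 reads in sgNT and 246 and 235 in sgCbfb. Both sgCbfb levels lay below the controls, with a log2 fold change of −0.38 ± 0.11 SE and an adjusted p of 0.0549, just outside the threshold. Dnajc10, a disulfide reductase of the endoplasmic reticulum, had 479 and 467 reads in sgNT and 634 and 518 in sgCbfb (log2 fold change 0.21, 95% interval 0.044 to 0.37, adjusted p = 0.189). Dnajc14 had 64, 75, 104 and 88 reads (log2 fold change 0.39, adjusted p = 0.292), and its 3′ end overlaps an exon of Sarnp on the same strand, so reads of the 2 genes may not be separable. The abundant Dnajc8, a spliceosome protein, had 1241, 1239, 1365 and 1078 reads and a log2 fold change of −0.10 (−0.23 to 0.031), and Dnajc21, a ribosome biogenesis factor, had 645, 753, 861 and 629 reads and one of 0.0096. Dnajc6, the neuronal auxilin, had no read.

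The 6 BAG genes summed to 351 and 360 CPM in sgNT and 392 and 376 in sgCbfb, so that both sgCbfb sums were above the controls. Both sgCbfb libraries lay above both controls for 4 of the 6 genes, against 27.4% of all genes tested. All 6 fold changes were positive on the deposited scale, against 57% of all, but none passed the test, and those of Bag2 and Bag3 changed sign among the alternative settings. Bag6, which guards newly made membrane proteins in the cytosol, had 135 and 140 reads in sgNT and 193 and 168 in sgCbfb (log2 fold change 0.32, 95% interval 0.056 to 0.58, adjusted p = 0.211). Bag1, a nucleotide exchange factor of HSP70, had 385, 411, 488 and 401 reads and a log2 fold change of 0.084. Bag3, which works with Hspb8 in selective autophagy and is itself heat-inducible, had 315, 316, 381 and 292 reads and a log2 fold change of 0.011 (−0.18 to 0.21). Bag2, an inhibitor of client ubiquitylation, had 183, 161, 225 and 149 reads and a log2 fold change of 0.024. Hspbp1, another exchange factor, had 238 reads in each control and 279 and 248 in sgCbfb (log2 fold change 0.075, adjusted p = 0.812), and Hspbap1 had 24, 27, 26 and 37 reads.

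**Figure D2:**
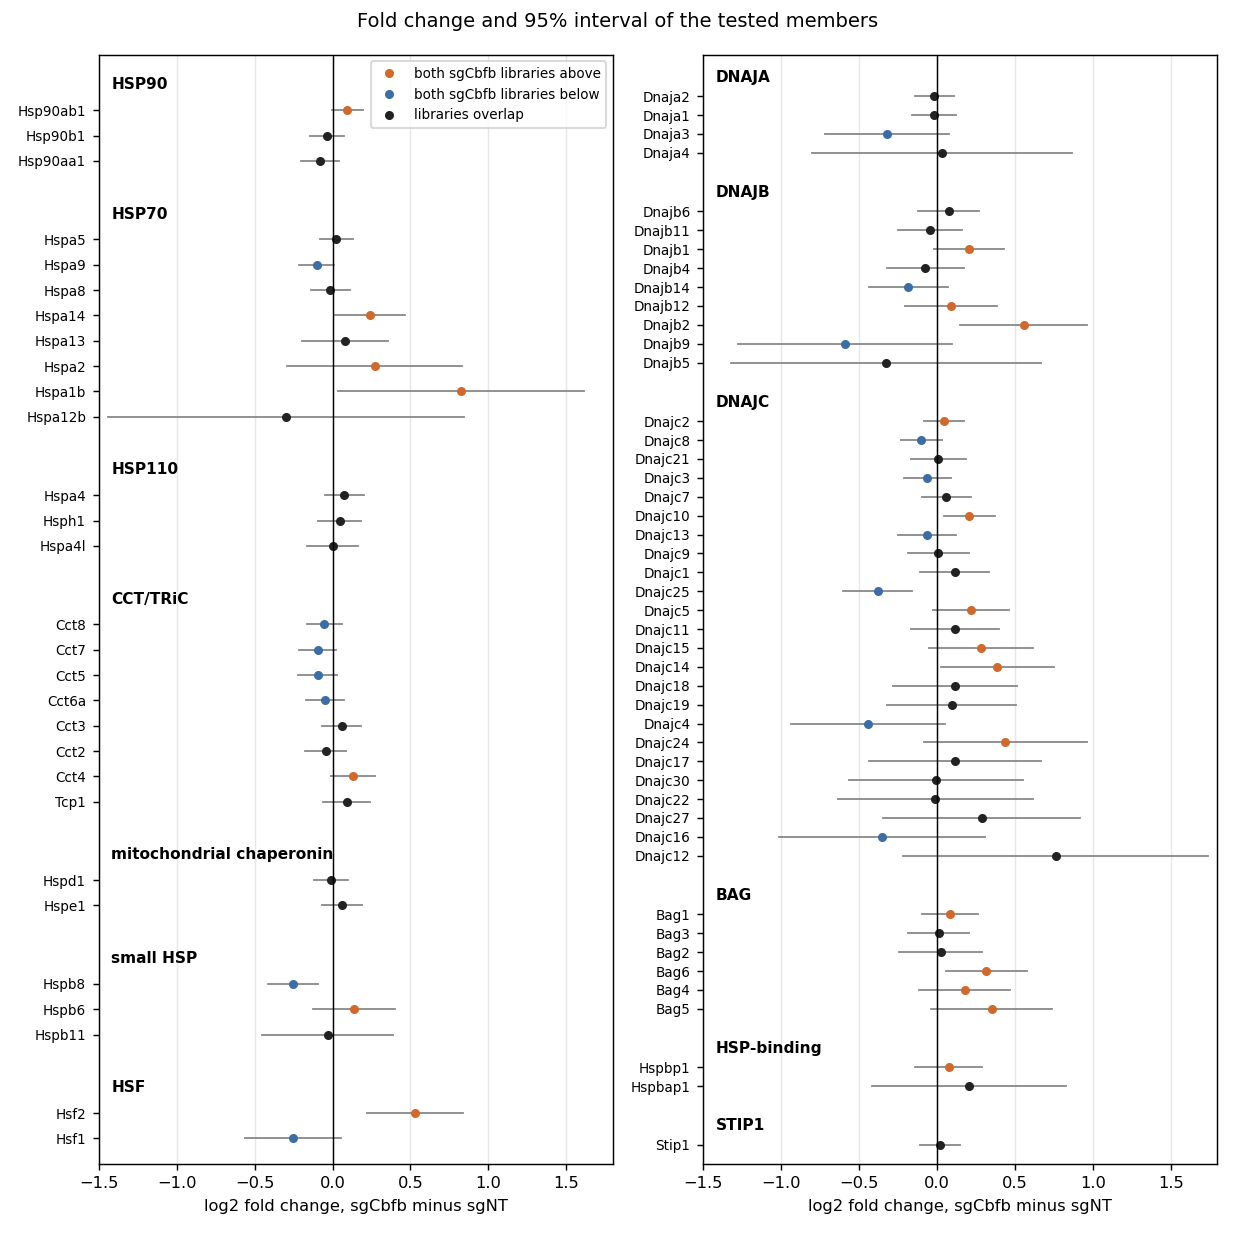
Log2 fold change of sgCbfb over sgNT (x axis) with its 95% interval for each of the 75 tested genes (y axis, by family and falling abundance), coloured by whether the 2 sgCbfb libraries lie above, below or among the 2 sgNT libraries. The 32 genes above 100 CPM have intervals within ±0.5, and the intervals widen as abundance falls.

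The TRiC chaperonin is built of 8 different subunits, and all 8 were tested (Tcp1, Cct2 to Cct5, Cct6a, Cct7 and Cct8). Their sum was 4102 and 4075 CPM in sgNT and 4113 and 3930 in sgCbfb. The 8 log2 fold changes ran from −0.095 for Cct5 to 0.13 for Cct4, and every one of the 8 intervals lay within ±0.5. Cct8 had 2812, 2697, 3074 and 2524 reads and a log2 fold change of −0.053, and Cct7 had 2167, 2160, 2415 and 1871 reads and one of −0.094. Cct5 had 2102, 1907, 2206 and 1752 reads. The sgCbfb levels of these 3 and of Cct6a were below the controls, or 4 of the 8, against 16.8% of all genes tested. Those of Cct4 (1104, 1144, 1501 and 1111 reads, adjusted p = 0.373) were above. All 8 had a mean above 100 CPM, a level at which 21.1% of all genes lay below the controls. Tcp1 had 825, 862, 1097 and 809 reads, with overlapping levels. The testis form Cct6b had 1 read in all and Cct8l1 none.

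The mitochondrial chaperonin, in which Hspe1 (HSP10) caps the folding chamber made by Hspd1 (HSP60), summed to 1890 and 1969 CPM in sgNT and 2012 and 1892 in sgCbfb. Hspd1 had 4117, 4093, 4822 and 3790 reads and a log2 fold change of −0.010 (−0.12 to 0.096). Hspe1 had 2302, 2474, 3039 and 2244 reads and a log2 fold change of 0.061 (−0.067 to 0.19). The levels of both overlapped between groups, and with Dnajb6 they are the genes with a triple heat-shock word among the 75 matched.

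Among the 8 small heat-shock proteins, 3 were tested. The family summed to 299 and 337 CPM in sgNT and 286 and 277 in sgCbfb, so that both sgCbfb sums were below the controls. Hspb8 (chr5:116408491-116422864, minus strand), a partner of Bag3, was the most abundant, with 792 and 900 reads in sgNT and 842 and 655 in sgCbfb. These were 233 and 270 CPM in sgNT and 215 and 205 in sgCbfb, most of each family sum. Both sgCbfb levels were below the controls by a log2 fold change of −0.25 (95% interval −0.41 to −0.094), with an adjusted p of 0.0805. Hspb6 (HSP20) had 158, 149, 211 and 149 reads and a log2 fold change of 0.14 (−0.12 to 0.40), and Hspb11 had 66, 75, 65 and 80 reads and one of −0.032. Hspb1 (HSP27) had 1 read in sgNT replicate 1 and none in the other libraries. Hspb2 had 2 reads in all, and Hspb3, Hspb7 and Hspb9 had none.

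Cryab (αB-crystallin) is a small heat-shock protein by sequence, but its symbol places it outside the rule. It was in the outside list of other heat-shock genes. It had 32 and 31 reads in sgNT and 136 in each sgCbfb library, so that the groups stood far apart. This was a log2 fold change of 1.98 (95% interval 1.57 to 2.38), or 3.94-fold, with an adjusted p of 2.24e-07 by limma. Without sgCbfb replicate 1 or replicate 2 the log2 fold change was 2.12 or 1.83 at an adjusted p of 0.272 or 0.314, in fits in which no gene of the 12207 was called. No 75-base stretch at its 3′ end is shared with another gene. Its head-to-head neighbour Hspb2, whose 3′ end overlaps Cryab on the opposite strand, had 0 and 1 reads in sgNT and 1 and 0 in sgCbfb.

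**Figure D3:**
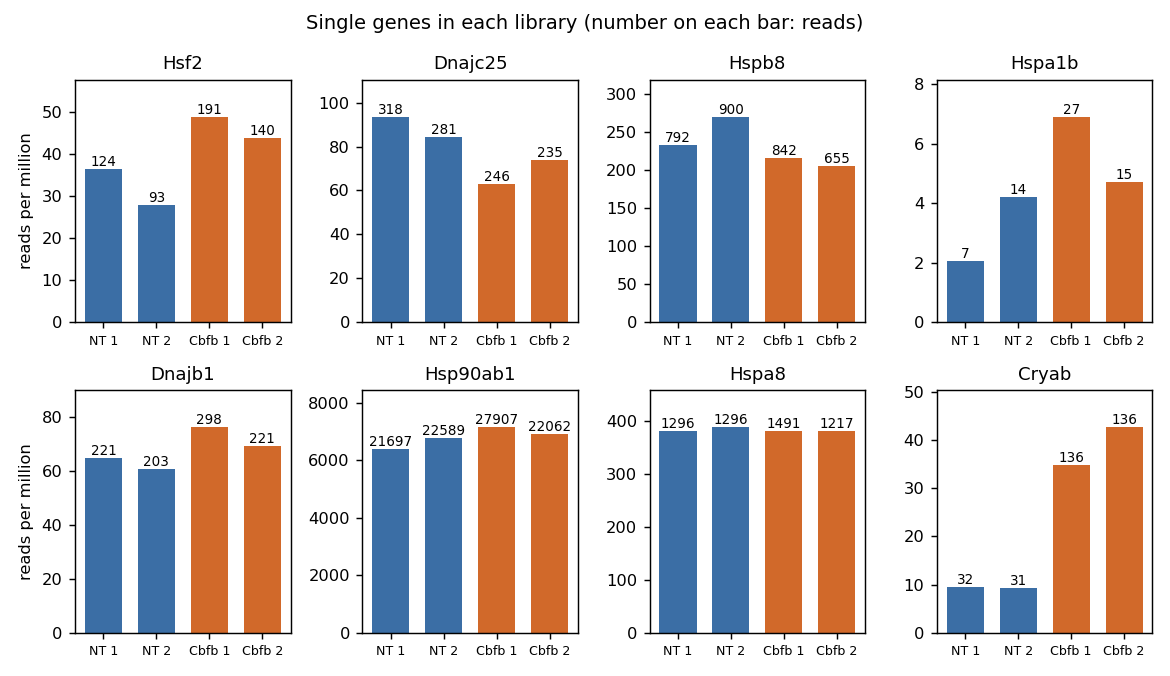
CPM (y axis, from 0) in the 2 sgNT (blue) and 2 sgCbfb (orange) libraries for 8 genes, with the number of reads on each bar. The bars of Hspa8 are level, those of Hsf2, Dnajc25 and Hspb8 are separated between groups by small steps, and those of Cryab rise from 32 and 31 reads to 136 and 136.

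The 2 heat-shock factors summed to 72.4 and 64.8 CPM in sgNT and 77.0 and 76.8 in sgCbfb, above the controls, and had fold changes of opposite sign. Hsf2 (chr10:57486385-57513135, plus strand, GRCm38), a factor active in development that can pair with HSF1, had 124 and 93 reads in sgNT and 191 and 140 in sgCbfb. Both sgCbfb levels were above the controls, with a log2 fold change of 0.53 (95% interval 0.22 to 0.83) and an adjusted p of 0.0522, the smallest of the 75. Hsf1, the main stress factor, had 122 and 123 reads in sgNT and 110 and 105 in sgCbfb, below the controls by a log2 fold change of −0.25 (−0.56 to 0.053, adjusted p = 0.455). Hsf2, Dnajc25 and Hspb8 each passed the threshold in some alternative settings. Hsf2 passed in 4 of the 14, among them a filter of 5 CPM (adjusted p = 0.0129) and voom on library totals (0.0256), and over all 14 its adjusted p ran from 0.0095 to 0.593. Its log2 fold change was 0.72 without sgNT replicate 1 (adjusted p = 0.0306) and 0.34 without sgNT replicate 2 (adjusted p = 0.427). Dnajc25 passed in 5 of the 14 (range 0.0149 to 0.567) and Hspb8 in 6 (0.0149 to 0.576). The log2 fold change of Hspb8 was −0.36 without sgNT replicate 1 (adjusted p = 0.0491) and −0.15 without sgNT replicate 2 (adjusted p = 0.561).

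Read against abundance, the fold changes of the 75 genes were small. The median size of the log2 fold change, sign ignored, was 0.095 for the 75 and 0.17 for all genes tested. Low counts widen such values, so the same was taken at higher levels. Above 30 CPM it was 0.076 for 52 chaperone genes and 0.10 for 5008 genes, and above 100 CPM 0.061 for 32 and 0.084 for 1816. Above 100 CPM, 96.9% of the chaperone genes and 91.6% of all genes had a log2 fold change within ±0.25. These shares are descriptions and were not tested.

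**Figure D4:**
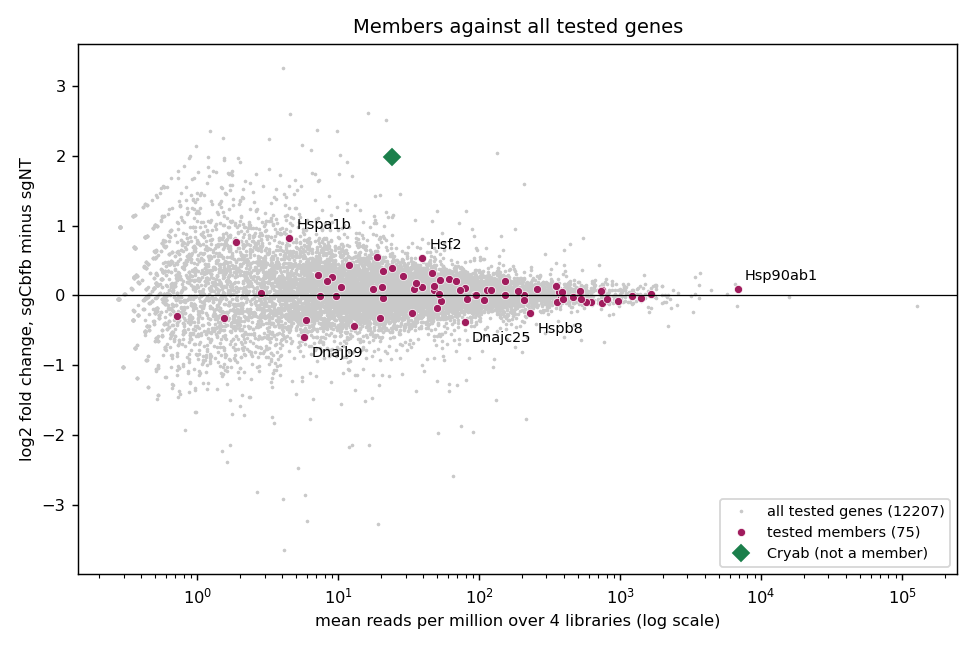
Log2 fold change (y axis) against mean CPM (x axis, log scale) for the 12207 tested genes in grey, the 75 tested chaperone genes in purple and Cryab as a green diamond. The chaperone genes lie inside the grey cloud at their level, from −0.59 for Dnajb9 to 0.82 for Hspa1b, whereas Cryab lies at 1.98.

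Genes were also read by their promoter words. The 13 tested genes with an inverted heat-shock pair had a median log2 fold change of 0.045, against 0.021 for the 47 matched and tested genes without it. The 3 with the triple word lay between −0.010 and 0.076. The 8 with a RUNX core had a median of −0.023, against 0.040 for 52 without it, and ranged from −0.33 for Dnajb5 to 0.56 for Dnajb2. Dnajb5 had 8, 4, 3 and 6 reads, and leaving out 1 library moved its log2 fold change between −0.76 and 0.11.

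Other parts of the system were read from lists of outside genes. Of 29 cochaperones of HSP70 and HSP90, a list that also holds Trap1, the mitochondrial HSP90, 28 were tested and none was called in either direction by limma (3 at an unadjusted p below 0.05, or 10.7%, against 14.9% of all genes). Tomm34, which helps mitochondrial precursors through the cytosol, had 229 reads in each control and 326 and 283 in sgCbfb (log2 fold change 0.34, adjusted p = 0.0775, called in 2 of the 14 alternative settings). The HSP90 cochaperones Ptges3 (p23) and Cdc37, which loads kinases, had log2 fold changes of −0.046 and −0.12. Of 14 prefoldin subunits, phosducin-like proteins and tubulin cofactors, which bring actin and tubulin to TRiC or take tubulin onwards, none was called (4 at an unadjusted p below 0.05, or 28.6%, against 14.9% of all genes). Tbcc had 61, 65, 109 and 92 reads (log2 fold change 0.59, adjusted p = 0.0717, called in 2 of the 14) and Tbcb 282, 290, 422 and 324 (0.30, adjusted p = 0.0940). Of 12 other heat-shock genes 9 were tested, and Cryab alone was called. The collagen chaperone Serpinh1 (HSP47) had 897, 1009, 1252 and 1007 reads (log2 fold change 0.17, adjusted p = 0.249), and Hmox1, a gene of heat and oxidative stress, had 55, 48, 43 and 43 reads. Of 8 immediate-early genes, which handling of cells can raise, 2 were called, against 2.83% of all genes. Ier3 was higher (log2 fold change 0.43, adjusted p = 2.07e-05), Jun was lower (−0.37, adjusted p = 0.00307), and the other 6, Fos and Egr1 among them, were not called. Ier3 was called in 11 of the 14 alternative settings and Jun in 9. Without sgNT replicate 1 Jun had an adjusted p of 0.0547, and without sgCbfb replicate 1 or replicate 2 those of Jun were 0.447 and 0.511 and those of Ier3 0.423 and 0.406. The part of handling in the chaperone values was not tested.

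Near-identical copies limit a few levels. In 75-base stretches of the last 500 transcript bases, Hspa8 shared 63.8% with other annotated transcripts, mainly pseudogenes, Hspe1 39.0%, Dnaja1 36.4%, Hspb1 36.5%, Hspd1 22.1% and Hsp90aa1 20.9%. Reads from such stretches could have been dropped or split in counting, so the levels of these genes are uncertain while the comparison between libraries used the same counting throughout. Most of the named copies have no row among the listed genes. In the last 500 bases of their final exons, Cct8, Dnaja1, Tcp1, Hspb6, Dnajc1 and Dnajc19, among others, overlap exons of genes on the opposite strand. Whether reads of such genes were kept apart depends on the strand setting of the counting, which is not given in the sources used here.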

How the data were processed

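The authors sequenced 75-base single-end reads, trimmed them (cutadapt 1.9), mapped them to mm10 (HISAT2 2.1.0) and counted them per gene with featureCounts. The strand setting, the treatment of reads with several matches and the annotation are not given in the sources used here. The authors deposited log2 CPM with a prior count added, 1 column per library. Whole reads were recovered from these values for 99.99 to 100.0% of the genes with any read in each library (within 0.1 read). limma 3.58.1 (R 4.3.3) with a mean-variance trend was fitted to the deposited log2 values of 12207 genes. P-values were adjusted over all of them by Benjamini-Hochberg and called below 0.05. The study used voom with limma, tried here on the recovered reads as an alternative. An exact permutation test of 2 against 2 libraries cannot give a p below 0.333. Nothing in the labels says that the libraries come from separate electroporations, so the p-values measure only the spread between these samples. Named genes were the 12 with the smallest p, the 3 most abundant of each family and a fixed list of central chaperones, and genes at the ends of a range or in short counts were named after their values were seen. The genes, families and lists were chosen with earlier results of these data known. Sequences are from RefSeq (GRCm38.p6), overlaps and copies from GENCODE M21. Alternatives changed the filter, scaling, prior count, trend, test, block and libraries.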

Additional observations from a re-analysis of the deposited data

How the results depend on the processing

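Under the test used, 0 of the 75 chaperone genes were higher and 0 lower in sgCbfb. The count higher was 1 with a filter of 5 CPM (Hsf2), 2 with voom on library totals (Hsf2 and Hsp90ab1) and 0 to 1 when each library was left out in turn (Hsf2 without sgNT replicate 1). The count lower was 2 with a filter of 5 CPM, with median centring and with voom on library totals or with TMM scaling (Dnajc25 and Hspb8 each time), and 0 to 1 when each library was left out (Hspb8 without sgNT replicate 1). With the replicate number as a replicate block the counts were 1 higher (Hsf2) and 2 lower (Dnajc25 and Hspb8). Libraries that share a number had uncorrelated deviations from their group means (r = −0.0042 across genes), so the numbers were not taken as pairs. The counts were 0 and 0 with no filter beyond 1 read, quantile normalization, ribosomal RNA left out of the totals, a prior count of 0.5 and no trend. Over all genes tested, 2.83% were called under the test used, 5.33% with a filter of 5 CPM, 2.98% with median centring, 3.72% with voom on library totals, 3.42% with TMM scaling, 4.38% with the block and 1.65% without sgNT replicate 1. With the filter of 5 CPM and with the block Tbcc and Tomm34 were also called. The causes were not tested. Leaving out 1 library leaves a group with 1, which the fit assumes to vary like the others, and without either sgCbfb library 0 of 12207 genes were called. Without the trend Cryab had an adjusted p of 0.113, Ier3 of 0.311 and Jun of 0.352, and all 12207 genes gave 0 calls, with 1461 at an unadjusted p below 0.05. Jun was also not called with quantile normalization (0.0584) or without sgNT replicate 1 (0.0547). Depth limits the low genes: intervals lay within ±0.5 for all 32 chaperone genes above 100 CPM but for 49 of the 75.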
